A study of Mus musculus with 11 samples.

Results

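Integrins, syndecans, glypicans and dystroglycan are the main receptors through which a cell holds and reads the extracellular matrix, and their transcripts were followed in naive extra-embryonic endoderm (nEnd), mouse stem cells grown as a counterpart of the blastocyst's primitive endoderm (PrE). The members were taken by gene symbol: every gene whose symbol begins with Itga (18 alpha subunits) or Itgb (8 beta subunits), the syndecans Sdc1 to Sdc4, the glypicans Gpc1 to Gpc6 and Dag1. Symbols of binding or like proteins were left out, namely Itgb1bp1, Itgb1bp2, Itgb2l, Itgb3bp and Itgbl1. This gave 37 of the 48952 genes in the bulk count table, and all 37 were also among the 32285 genes of the single-cell tables.

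The bulk part of the study holds 9 RNA-seq libraries of untreated nEnd of a line whose OCT4 protein is tagged with mCherry. Live cells were sorted into Pdgfra+ cells (PDGFRA on the surface, no reporter), DP cells (positive for both) and Oct4+ cells (reporter only), with 3 libraries each, which the study calls biological replicates, kept in RACL medium (RPMI with Activin A, the GSK3 inhibitor CHIR99021 and LIF). The single-cell part holds 2 droplet libraries of nEnd made from Oct4LOF embryonic stem cells, in which both copies of Oct4 (Pou5f1) can be inactivated with 4-hydroxytamoxifen (4OHT). PDGFRA-positive Oct4LOF cells were sorted, cultured for 48 hours without 4OHT (-4OHT) or with it (+4OHT) and then for a further 72 hours in normal medium, with 1 library per condition, and both libraries carry the inducible allele. For nEnd in general, the paper describes expansion on plates coated with mouse embryonic fibroblasts.

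An integrin is a pair of 1 alpha and 1 beta chain, and the pair decides the ligand: partners of the beta1 chain bind laminin (alpha3, alpha6), fibronectin (alpha5) or collagen (alpha1, alpha11), and the alphav chain binds vitronectin, fibronectin and latent TGF-beta with beta1, beta3, beta5, beta6 or beta8. Syndecans and glypicans carry heparan sulfate chains that hold growth factors such as FGF and WNT at the surface. Syndecans span the membrane, whereas glypicans are tied to it by a lipid anchor, and dystroglycan binds laminin through its sugar chains. In the blastocyst the PrE lays down a basement membrane of laminin and collagen IV beneath the epiblast (Epi), and mouse embryos without beta1 integrin die soon after implantation.

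Bulk libraries held 8019631 to 11642571 reads, and levels are given as CPM, the reads of a gene scaled to the same library size in all samples. Across 10 endoderm markers the summed level was 29209 to 57663 CPM in Pdgfra+ and DP libraries and 318 to 689 CPM in Oct4+ libraries, whereas 10 Epi markers summed to 154 to 265 CPM in Pdgfra+, 741 to 1194 CPM in DP and 4132 to 5475 CPM in Oct4+. The Oct4+ libraries also carried 9 genes of the two-cell-like state at 371, 805 and 1324 CPM (1.10 to 23.7 CPM elsewhere), and 10 fibroblast genes stood at 156 CPM in Oct4+ replicate 1, at 21.9 and 9.75 CPM in Oct4+ replicates 2 and 3 and at 1.71 to 13.5 CPM in the other groups. In bulk libraries, fewer cells of a type and less RNA per cell cannot be told apart.

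Among the glypicans, 2 pairs are neighbours in the genome. Gpc3 (ENSMUSG00000055653, X chromosome, 52272426 to 52613950, minus strand, GRCm38) and Gpc4 (ENSMUSG00000031119, 52053021 to 52165252, minus strand) are 107 kb apart, and Gpc5 and Gpc6 (ENSMUSG00000058571, chromosome 14, 116925315 to 117976544, plus strand) are 400.1 kb apart. Sdc4 (ENSMUSG00000017009, 164424247 to 164443887, minus strand) and Itgb6 (ENSMUSG00000026971, 60598292 to 60722643, minus strand) are on chromosome 2, and Itgb7 (ENSMUSG00000001281, 102215995 to 102231944, minus strand) is on chromosome 15. The 250 bases before the RefSeq start (GRCm38.p6) are shown for Gpc3, Sdc4, Itgb6 and Itgb7. The gene positions above are from GENCODE, and by them these bases lie inside the gene for Sdc4 and reach into it for Itgb6 and Itgb7. Libraries of Pdgfra+ and DP had more Gpc3, Sdc4 and Itgb6 than those of Oct4+, and less Itgb7. The windows are given as 5′ to 3′ runs on the gene's strand at chrX:52613975-52614224, chr2:164443189-164443438, chr2:60722604-60722853 and chr15:102231936-102232185. Capitals mark the GC box GGGCGG or its reverse complement.
Gpc3: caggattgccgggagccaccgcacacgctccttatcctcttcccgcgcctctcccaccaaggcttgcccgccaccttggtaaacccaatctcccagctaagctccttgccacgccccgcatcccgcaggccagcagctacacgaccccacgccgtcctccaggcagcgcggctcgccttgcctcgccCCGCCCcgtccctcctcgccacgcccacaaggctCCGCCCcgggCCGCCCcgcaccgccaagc
Sdc4: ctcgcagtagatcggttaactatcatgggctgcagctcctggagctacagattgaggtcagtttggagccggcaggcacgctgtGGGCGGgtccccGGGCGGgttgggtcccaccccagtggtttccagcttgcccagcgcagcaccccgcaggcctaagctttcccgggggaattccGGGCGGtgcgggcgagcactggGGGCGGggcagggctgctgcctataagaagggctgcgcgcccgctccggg
Itgb6: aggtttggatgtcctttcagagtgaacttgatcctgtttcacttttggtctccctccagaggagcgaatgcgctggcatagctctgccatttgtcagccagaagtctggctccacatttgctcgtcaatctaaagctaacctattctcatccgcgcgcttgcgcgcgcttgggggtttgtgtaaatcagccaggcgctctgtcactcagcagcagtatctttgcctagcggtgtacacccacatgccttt
Itgb7: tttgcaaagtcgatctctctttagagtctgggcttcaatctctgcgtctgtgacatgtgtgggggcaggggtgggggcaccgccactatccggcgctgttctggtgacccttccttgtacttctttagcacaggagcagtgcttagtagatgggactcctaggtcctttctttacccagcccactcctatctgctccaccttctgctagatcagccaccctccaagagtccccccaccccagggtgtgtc
The windows of Gpc3 and Sdc4 held 3 and 4 GC boxes and 25 and 19 CpG dinucleotides, and those of Itgb6 and Itgb7 held no GC box and 11 and 5 CpG, against a median of 6 CpG over 32851 windows. A second Itgb6 window, at chr2:60673694-60673943 and not shown, held no GC box and 3 CpG. A GC box on either strand was found in 32.7% of all 32851 windows and in 16 of the 29 windows of the 26 members with an entry. The GATA letters AGATAA or TGATAA on either strand were found in 16.6% of all windows and in 3 of the 29 member windows (Gpc2, Gpc5 and Itgax), and the octamer letters ATTTGCAT in 1.6% of windows and in none of the 29.

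Of the 37 members, 29 passed the filter on low counts and were tested among 14185 genes. The other 8 (Itga2, Itga4, Itga11, Itgad, Itgam, Itgax, Itgb8 and Gpc5) had at most 17 reads in any library, and Itgad had none. A gene was called where its edgeR adjusted p was below 0.05 and its log2 fold change, in either direction, exceeded 1.5. Because a gene can pass the filter through the group in which it is high, the counts of calls below are descriptions.

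Receptor transcript levels differed between Oct4+ and Pdgfra+ cells. Of the 29 members tested, 9 rose and 6 fell in Oct4+ against Pdgfra+, whereas 17.3% and 14.7% of all genes tested rose and fell (32.0% in all). The genes that rose were the glypican Gpc1, the syndecan Sdc2, the beta chains Itgb3 and Itgb7 and the alpha chains Itga1, Itga8, Itga9, Itgae and Itgal. The genes that fell were Itgb1, Itgb2, Itgb6, Gpc3, Gpc4 and Gpc6. Level divided them further: 6 of the 9 that rose stayed under 10 CPM in every group mean, whereas 5 of the 6 that fell were at 10 CPM or more. Libraries of the 2 groups did not overlap for 25 members (69.3% of all genes), and the median log2 fold change of the members was -0.03 against 0.01 over all genes.

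DP cells, set against Oct4+ cells, showed 7 members higher and 9 lower, where 13.1% and 14.6% of all genes were higher and lower (27.7% in all). The higher members were Itga5, Itgb2, Itgb6, Sdc3, Sdc4, Gpc3 and Gpc6, and the lower ones were Itga1, Itga8, Itga9, Itgae, Itgal, Itgb3, Itgb7, Sdc2 and Gpc1. Libraries did not overlap for 22 members (62.6% of all genes). The comparisons share libraries, so that their lists are not independent of each other.

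Between DP and Pdgfra+ cells no member was called by edgeR, against 3.89% of all genes (3.20% higher and 0.691% lower in DP). DESeq2 also called 0, whereas a fit with the replicate number as a block called 1, Itgb6. An unadjusted p below 0.05 was found for 6 of the 29, and for 3614 of all 14185 genes. Adjusted p fell below 0.05 with a smaller change for Gpc1, which was higher in DP, and for Itgb5, which was lower. Libraries of DP and Pdgfra+ did not overlap for 10 members, which was 34.2% of all genes. The median log2 fold change was -0.33 over the members and 0.02 over all genes.

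**Figure D1:**
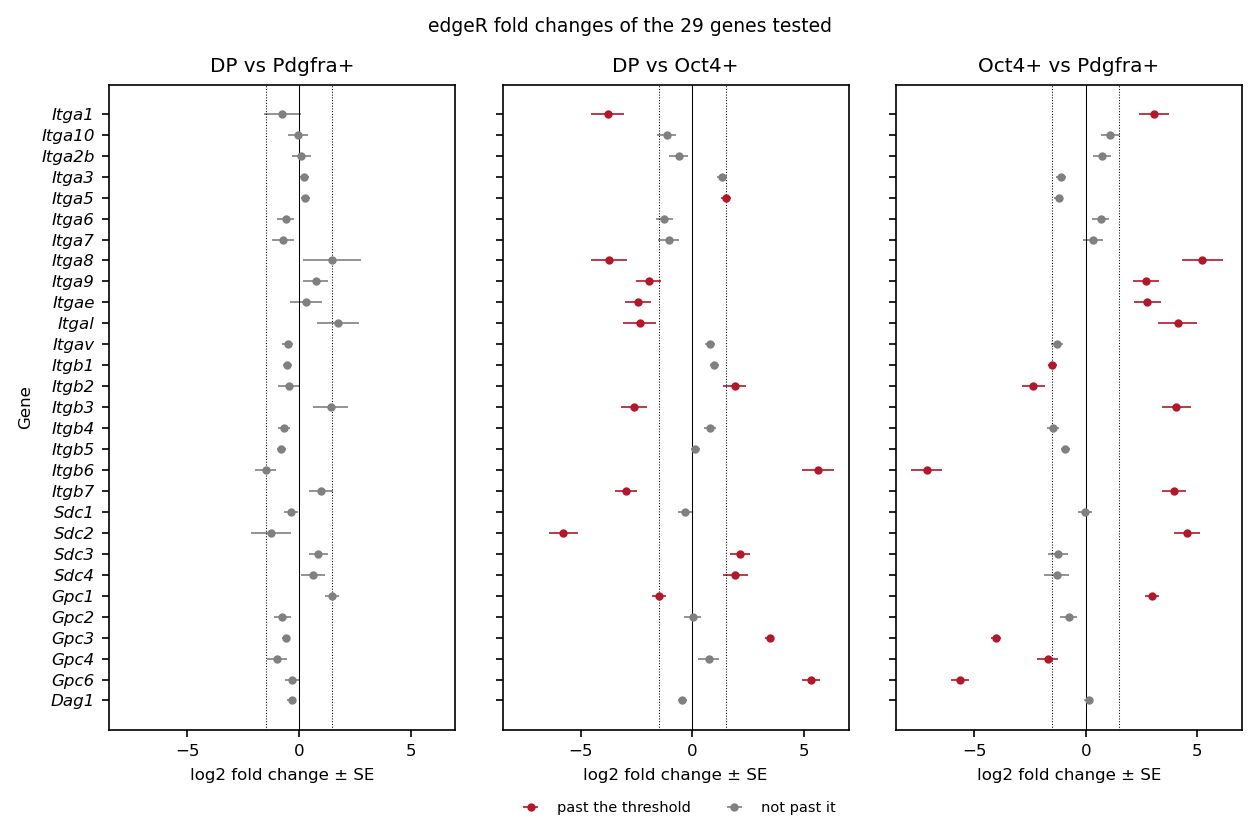
Each point is the edgeR log2 fold change of 1 of the 29 genes tested with its standard error (bar) in 1 of the 3 bulk comparisons (9 libraries, 3 per group); red points passed adjusted p below 0.05 and the dotted lines at 1.5 and -1.5. No point is red for DP against Pdgfra+, whereas 16 and 15 are red in the comparisons with Oct4+.

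Among the beta chains, Itgb1, the common partner of most alpha chains, was the most abundant in every library per length. Its level was 674, 683 and 715 CPM in Pdgfra+ replicates 1 to 3, 553, 424 and 459 CPM in DP and 204, 328 and 197 CPM in Oct4+. The 3 groups did not overlap, with Pdgfra+ highest and Oct4+ lowest. Oct4+ against Pdgfra+ gave -1.51 ± 0.20 on the log2 scale (with its SE, edgeR adjusted p = 0.00013), which lies at the threshold, and it was -1.43 with DESeq2 size factors. DP differed from Oct4+ by 0.98 ± 0.20 (edgeR adjusted p = 0.00212) and from Pdgfra+ by -0.53 ± 0.20 (edgeR adjusted p = 0.131), neither past both limits.

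Itgb6, whose product pairs with alphav to activate latent TGF-beta, had the largest fold among all members. Pdgfra+ libraries held 179, 119 and 237 reads (21.8, 11.9 and 24.7 CPM), DP libraries 82, 23 and 59 reads (10.2, 2.71 and 7.71 CPM) and Oct4+ libraries 1, 1 and 2 reads. Oct4+ was thus close to empty of this transcript, and DP lay between. Over the summed reads of each group, Pdgfra+ exceeded Oct4+ 155-fold (535 against 4 reads, 95% counting interval 60.01 to 569) and DP exceeded Oct4+ 54.6-fold (20.9 to 203). Both were called, with edgeR adjusted p of 1.9e-05 and 0.00011. In DP it was lower than in Pdgfra+ in 3 of 3 libraries with the same number, at -1.501 ± 0.46 with an edgeR adjusted p of 0.0782. With the replicate number as a block, which pairs DP and Pdgfra+ libraries, this became a call (-1.57, edgeR adjusted p = 0.0185), and without DP replicate 1 it was -1.90 (edgeR adjusted p = 0.0499).

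Itgb7, known as the partner of alpha4 and alphaE in lymphocytes, ran the other way. It stood at 0.610, 0.897 and 1.67 CPM in Pdgfra+, 1.99, 3.42 and 0.915 CPM in DP and 20.5, 18.1 and 11.2 CPM in Oct4+. All Oct4+ libraries lay above all others, and DP and Pdgfra+ overlapped. The change was 3.95 ± 0.53 for Oct4+ against Pdgfra+ (edgeR adjusted p = 0.000131) and -2.96 ± 0.50 for DP against Oct4+ (edgeR adjusted p = 0.000677). Itgae, which encodes the alphaE chain, rose in the same comparison from 9 reads over the Pdgfra+ libraries to 72 over the Oct4+ libraries, a ratio of 6.92 (3.45 to 15.8).

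The remaining beta chains were spread over a wide range. Itgb4, the partner of alpha6 in hemidesmosomes, stood at 74.0 ± 5.29 CPM in Pdgfra+, 46.5 ± 17.5 in DP and 26.8 ± 4.83 in Oct4+ (SD, n = 3 each), and its difference of -1.47 between Oct4+ and Pdgfra+ missed the fold limit (edgeR adjusted p = 0.000971). Itgb5, which joins alphav to bind vitronectin, was at 92.7 ± 11.0, 53.6 ± 13.5 and 49.2 ± 8.99 CPM in the same order. It passed adjusted p for both DP and Oct4+ against Pdgfra+ with changes of -0.79 and -0.92. Itgb2 and Itgb3, known from leukocytes and platelets, never passed 10 CPM, and Itgb8 had at most 3 reads in a library.

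The alpha chains Itga5, Itga3, Itga6 and Itgav were the most abundant in Pdgfra+ and DP. Itga5, the fibronectin receptor chain, was at 306, 244 and 264 CPM in Pdgfra+, 350.2, 294 and 349 CPM in DP and 142, 79.6 and 127 CPM in Oct4+. Every Oct4+ library lay below all others. DP exceeded Oct4+ by 1.51 ± 0.21 (edgeR adjusted p = 0.000199), at the edge of the fold limit (1.45 with DESeq2 size factors), and Pdgfra+ exceeded Oct4+ with a change of -1.22 ± 0.20 that was not called. Itga3, a laminin receptor chain, had nearly the same pattern, at 204 ± 30.4, 238 ± 61.4 and 95.1 ± 23.1 CPM, and its changes of 1.32 and -1.11 passed adjusted p and not the fold limit.

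Itga6, also a laminin receptor chain, was the one abundant alpha chain with its highest levels in Oct4+. It was at 146, 52.3 and 135 CPM in Pdgfra+, 105, 44.1 and 70.7 CPM in DP and 207, 166 and 156 CPM in Oct4+. Replicate 2 was the lowest library in both Pdgfra+ and DP, and all Oct4+ libraries lay above both groups. The change for DP against Oct4+ was -1.27 ± 0.39 (edgeR adjusted p = 0.0179), short of the fold limit, and it was -1.58 (edgeR adjusted p = 0.0117) without DP replicate 1. Oct4+ and Pdgfra+ differed by 0.67 ± 0.38 (edgeR adjusted p = 0.149). Genes annotated on the opposite strand overlap Itga1, Itga6, Itga7, Itga8, Itga9, Itgae, Itgav, Itgb4, Sdc3, Gpc1, Gpc3 and Gpc6 among the members tested, and whether the bulk counts used strand is not given, so that reads of such pairs cannot be told apart. On the same strand, annotated genes overlap Itga1, Itga2b, Itga5, Itga6, Itga7, Itga8, Itga10, Gpc1, Gpc2 and Gpc3, and use of strand would not separate these.

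Itgav was highest in Pdgfra+ and lowest in Oct4+. Its levels were 163, 127 and 167 CPM in Pdgfra+, 133, 79.1 and 110.3 CPM in DP and 42.4, 69.4 and 75.1 CPM in Oct4+. Only the neighbouring groups DP and Pdgfra+ overlapped. The log2 fold change was -1.29 ± 0.25 for Oct4+ against Pdgfra+ (edgeR adjusted p = 0.00119), 0.79 ± 0.25 for DP against Oct4+ (edgeR adjusted p = 0.0198) and -0.50 ± 0.24 for DP against Pdgfra+ (edgeR adjusted p = 0.228), none past the fold limit.

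Itga9, whose chain pairs with beta1 to bind tenascin and osteopontin, was higher in Oct4+, but with a wide spread. It was at 1.71, 2.99 and 4.38 CPM in Pdgfra+, 3.99, 5.55 and 5.75 CPM in DP and 33.7, 19.9 and 5.99 CPM in Oct4+. All Oct4+ libraries lay above the others, the lowest of them close to the highest DP library, and DP and Pdgfra+ overlapped. Oct4+ against Pdgfra+ gave 2.71 ± 0.58 (edgeR adjusted p = 0.00225) and DP against Oct4+ gave -1.97 ± 0.56 (edgeR adjusted p = 0.0125). The second call was lost without Oct4+ replicate 1 (-1.33, edgeR adjusted p = 0.0648). That library also had the highest fibroblast sum, with all 10 fibroblast markers detected, and 17 of the 18 Oct4+ reads of Itga11, a collagen receptor chain of fibroblasts. The part of fibroblast RNA in the Itga9 difference was not tested.

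The other alpha chains were rare. Itga1, Itga8, Itgae and Itgal, which were called as higher in Oct4+ against both groups, reached group means of 1.84 to 5.39 CPM there, and the group means elsewhere were 0.0348 to 0.871 CPM. Itga8 was counted 56 times in Oct4+ and 1 time in Pdgfra+, a ratio of 48.5 (8.35 to 1948). Itga10, Itga2b and Itga7 were detected in every library at 0.499 to 4.99 CPM and were called in no comparison.

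**Figure D2:**
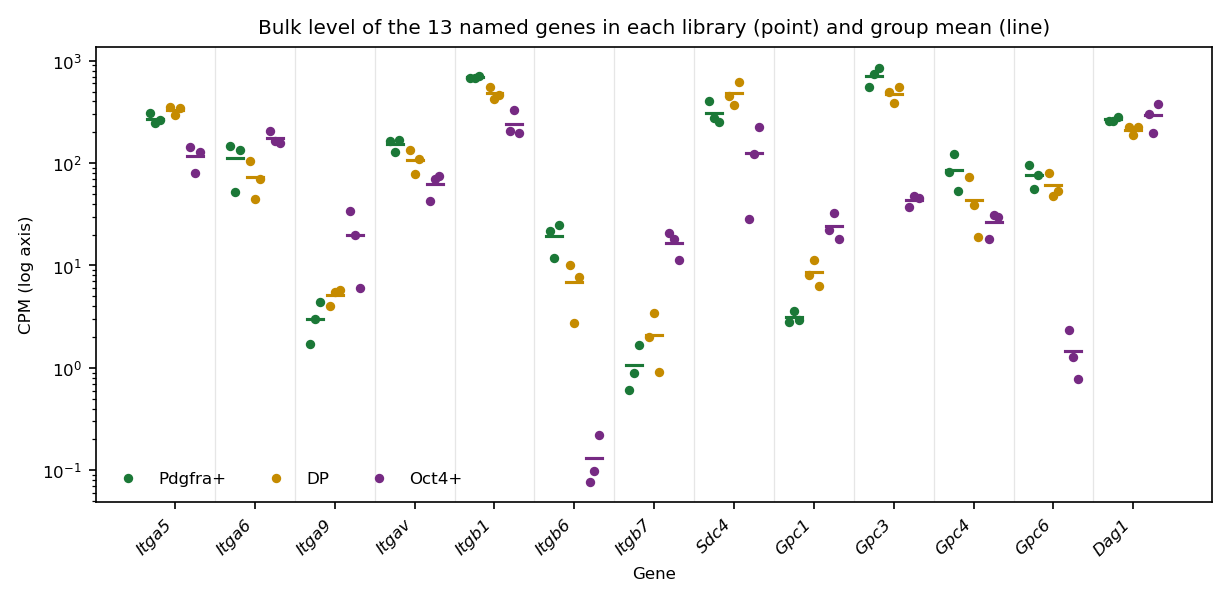
Points are the CPM (log axis) of the 13 genes described in full in each of 3 Pdgfra+, 3 DP and 3 Oct4+ libraries, and lines are group means. Oct4+ points sit below the others for Itgb6, Gpc3 and Gpc6 and above them for Itgb7, Gpc1 and Itga6.

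Sdc4 was the main syndecan, and syndecan-4 is known to act with integrins at focal adhesions. Its level was 402, 277 and 254 CPM in Pdgfra+, 455, 369 and 615 CPM in DP and 28.7, 123 and 226 CPM in Oct4+. All Oct4+ libraries lay below the other groups, with replicate 1 far below replicate 3. DP against Oct4+ was called at 1.93 ± 0.56 (edgeR adjusted p = 0.0143), and Oct4+ against Pdgfra+ was -1.30 ± 0.55 (edgeR adjusted p = 0.0613). Both depend on single libraries: without Oct4+ replicate 1 the first was 1.47 and no longer past the fold limit, and without Oct4+ replicate 3 the second was -2.04 (edgeR adjusted p = 0.00871) and called. The two-cell-like gene sum has the same order as Sdc4 over the Oct4+ replicates (371, 805 and 1324 CPM), and its part was not tested.

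Sdc2, a syndecan of mesenchymal cells, was nearly limited to Oct4+. Libraries of Pdgfra+ held 1, 1 and 4 reads, those of DP 1, 1 and 0 and those of Oct4+ 78, 51 and 43. The summed reads gave a ratio of 24.8 (11.2 to 68.5) for Oct4+ over Pdgfra+ and 64.6 (17.6 to 538) for Oct4+ over DP. Its Oct4+ levels were 6.05, 5.03 and 4.77 CPM, beside fibroblast sums of 156, 21.9 and 9.75 CPM in the same libraries, and the part of fibroblast RNA in its difference was not tested. Sdc3 was called as higher in DP than in Oct4+ (9.24 ± 2.25 against 2.08 ± 0.710 CPM, 2.14 ± 0.45, edgeR adjusted p = 0.00254). Sdc1, the epithelial syndecan, was at 25.5 ± 3.52, 19.8 ± 8.32 and 25.1 ± 6.95 CPM in Pdgfra+, DP and Oct4+, with overlapping libraries and changes between -0.36 and -0.03, none called.

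Gpc3, the glypican known as a restraint on growth factor signals and lost in an overgrowth syndrome, was the most abundant glypican. It stood at 559, 736 and 854 CPM in Pdgfra+, 497, 383 and 554 CPM in DP and 37.4, 47.5 and 45.8 CPM in Oct4+. Oct4+ was far below the other groups, and the highest DP library lay just under the lowest Pdgfra+ library. The fold change was -4.04 ± 0.22 for Oct4+ against Pdgfra+ (edgeR adjusted p = 1.3e-06) and 3.46 ± 0.21 for DP against Oct4+ (edgeR adjusted p = 2.69e-06). For DP against Pdgfra+ it was -0.58 ± 0.19 (edgeR adjusted p = 0.0947).

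Gpc6 fell in Oct4+ from a lower level. Its levels were 95.7, 55.4 and 76.1 CPM in Pdgfra+, 80.8, 47.4 and 53.9 CPM in DP and 2.33, 1.28 and 0.776 CPM in Oct4+. DP and Pdgfra+ overlapped and were both far above Oct4+. The change was -5.63 ± 0.39 for Oct4+ against Pdgfra+ (edgeR adjusted p = 3.56e-06), 5.31 ± 0.39 for DP against Oct4+ (edgeR adjusted p = 6.59e-06) and -0.32 ± 0.30 for DP against Pdgfra+ (edgeR adjusted p = 0.535). Its neighbour Gpc5 had 0 reads in Pdgfra+, 2 in DP and 11 in Oct4+.

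Gpc4, beside Gpc3 on the X chromosome, varied more within groups. It was at 81.9, 123 and 53.0 CPM in Pdgfra+, 72.7, 38.6 and 19.0 CPM in DP and 18.2, 30.9 and 29.9 CPM in Oct4+. DP overlapped both other groups. Oct4+ against Pdgfra+ was called at -1.71 ± 0.46 (edgeR adjusted p = 0.00811), but it was -1.39 and short of the fold limit without Pdgfra+ replicate 2. DP against Pdgfra+ was -0.99 ± 0.45 (edgeR adjusted p = 0.203) and reached -1.58 (edgeR adjusted p = 0.0499) without DP replicate 1.

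Gpc1 was lowest in Pdgfra+, intermediate in DP and highest in Oct4+. Its levels were 2.81, 3.59 and 2.92 CPM in Pdgfra+, 8.10, 11.3 and 6.27 CPM in DP and 22.4, 32.3 and 18.3 CPM in Oct4+. The 3 groups did not overlap. Oct4+ against Pdgfra+ was 2.96 ± 0.32 (edgeR adjusted p = 3.55e-05), DP against Oct4+ was -1.503 ± 0.30 (edgeR adjusted p = 0.00179) and DP against Pdgfra+ was 1.46 ± 0.32 (edgeR adjusted p = 0.0297). The last 2 lie on either side of the fold limit. Gpc2 stayed at 1.83 to 5.53 CPM in all libraries and was called nowhere.

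Dag1, which encodes dystroglycan, was called in no comparison. It was at 259.8, 259.5 and 282 CPM in Pdgfra+, 227, 189 and 223 CPM in DP and 303, 196 and 378 CPM in Oct4+. All DP libraries lay below Pdgfra+, and Oct4+ overlapped both. Changes were -0.33 ± 0.21 for DP against Pdgfra+, -0.46 ± 0.21 for DP against Oct4+ and 0.13 ± 0.21 for Oct4+ against Pdgfra+, with edgeR adjusted p of 0.348, 0.084 and 0.604.

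Levels of different genes were compared per kb of exon (GENCODE vM21). In Pdgfra+ the order was Gpc3 (266 ± 55.3 CPM per kb), Itgb1 (169 ± 5.27), Sdc4 (122 ± 31.4), Itga5 (55.003 ± 6.42), Dag1 (42.0 ± 2.06) and Itga3 (35.8 ± 5.32). In Oct4+ it was Itgb1 (59.6 ± 18.1), Sdc4 (49.5 ± 38.8), Dag1 (46.0 ± 14.5), Itga5 (23.6 ± 6.62), Itga6 (19.5 ± 3.04), Itga3 (16.6 ± 4.05) and Gpc3 (16.2 ± 2.00), and neighbours in this order lie within their spread. The summed glypican level was 312 ± 50.6 in Pdgfra+, 206 ± 33.5 in DP and 31.7 ± 5.09 in Oct4+, whereas the alpha chains summed to 119 ± 9.22, 129 ± 11.5 and 71.5 ± 7.50. Within the alpha chains, Itga6 made up 10.1% ± 4.17 in Pdgfra+, 6.31% ± 2.65 in DP and 27.4% ± 4.19 in Oct4+, and Itga5 46.3% ± 3.33, 52.2% ± 3.58 and 32.6% ± 6.33. Within the glypicans, the share of Gpc3 was 84.9% ± 4.79, 86.3% ± 5.54 and 51.3% ± 2.39, that of Gpc4 was 31.0% ± 4.40 in Oct4+ and that of Gpc1 was 14.9% ± 3.46 there.

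**Figure D3:**
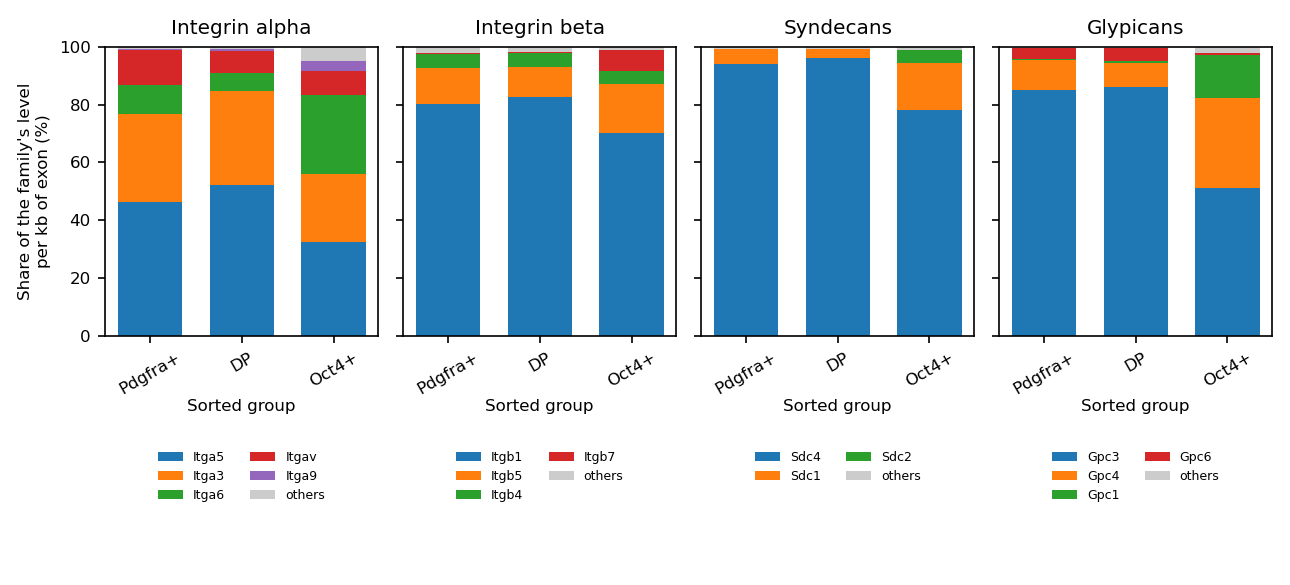
Bars show the mean share (%) of each gene in the summed CPM per kb of exon of its family over 3 libraries per sorted group, with genes under 3% in every group drawn as others. Itga6 and Gpc4 take a larger share in Oct4+ than in Pdgfra+ and DP, and Sdc4 leads the syndecans in all 3 groups.

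The ligands and partners of these receptors were counted in lists. Of 25 matrix ligands tested, 5 were higher and 12 lower in Oct4+ than in Pdgfra+, against 17.3% and 14.7% of all genes (median log2 fold change -1.36, against 0.01 over all genes), and 10 were higher and 6 lower in DP than in Oct4+, against 13.1% and 14.6%. The largest changes were in the collagen IV genes Col4a1 (24426 ± 5011 CPM in Pdgfra+, 115 ± 67.4 in Oct4+) and Col4a2 and in the laminin genes Lama1 (11673 ± 1691 against 58.6 ± 24.5 CPM) and Lamb1. DP differed from Pdgfra+ in 3 of the 25 matrix ligands (3.89% of all genes): Spp1 (osteopontin, a ligand of alphav and alpha9 integrins) rose by 2.70 ± 0.37, and Lamb3 and Fbln1 fell by 2.34 and 1.60 on the log2 scale, with edgeR adjusted p of 0.0101, 0.0219 and 0.0495. Fbln1 was at 94.2, 75.02 and 264 CPM in Pdgfra+ and 51.2, 33.9 and 57.5 CPM in DP, so that Pdgfra+ replicate 3 stood far above the other libraries, and the fit without it was not made for this gene.

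Among 31 integrin adaptors and partners tested, 2 were higher and 8 lower in Oct4+ than in Pdgfra+ (17.3% and 14.7% of all genes), and 7 were higher and 1 lower in DP than in Oct4+ (13.1% and 14.6%). In both comparisons the total called, 10 and 8 of 31, was near the share of all genes (32.0% and 27.7%). Tgfb1i1 was at 69.6 ± 20.2 CPM in Pdgfra+ and 2.32 ± 1.14 CPM in Oct4+, whereas Tns1 was higher in Oct4+ (2.24 ± 0.556 against 19.6 ± 11.0 CPM). Parva, an actin-binding partner of integrin-linked kinase, was at 149 ± 3.99 CPM in Pdgfra+ and 14.3 ± 9.92 CPM in Oct4+, and Zyx (zyxin) at 196 ± 4.83 and 37.9 ± 4.34 CPM. Ilk itself was higher in DP than in Oct4+ (106 ± 9.31 against 26.0 ± 6.95 CPM, 2.03 ± 0.19, edgeR adjusted p = 2.38e-05). None was called between DP and Pdgfra+ by edgeR, with 12 of 31 at an unadjusted p below 0.05, where 3614 of all 14185 genes were.

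The list of enzymes that build and trim heparan sulfate also held Notum and Sdcbp, which are not such enzymes. Of its 25 genes tested, 3 were higher and 9 lower in Oct4+ than in Pdgfra+, against 17.3% and 14.7% of all genes. Hs3st1, a 3-O-sulfotransferase, was at 514 ± 145 CPM in Pdgfra+, 275 ± 111 in DP and 3.06 ± 2.07 in Oct4+, and the 6-O-sulfotransferase Hs6st2 fell from 56.9 ± 12.1 to 3.04 ± 2.06 CPM. Notum, a lipase that acts on WNT proteins, was 1 of the 3 that were higher and rose from 0.873 ± 0.240 to 46.4 ± 27.9 CPM. Between DP and Pdgfra+, the sulfotransferase Ndst1 fell (61.1 ± 29.3 to 17.0 ± 4.69 CPM, edgeR adjusted p = 0.0201) and the sulfatase Sulf1 rose (12.2 ± 2.97 to 38.2 ± 7.02 CPM, edgeR adjusted p = 0.0232).

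The single-cell libraries held 6896 (-4OHT) and 7283 (+4OHT) barcodes, 21 of them shared by sequence, with medians of 15591.5 and 11825 UMIs, and 11332 cells were kept. Cells were clustered without the member genes, and clusters were named from the fixed markers. Endoderm-like cells numbered 1311 in -4OHT and 5935 in +4OHT, and epiblast-like cells 3662 and 0. Pou5f1 was at 13.5 CPM in endoderm-like cells of -4OHT and 1.72 CPM in those of +4OHT, with 48.5 CPM in epiblast-like cells of -4OHT. Of the 276 Pou5f1 UMIs in endoderm-like cells of -4OHT, 252 came from 1 cluster, led by Amn, which held 2 cells of +4OHT. Whether these 3′ reads lie in the inactivated part is not given in the sources used here. With 1 library per condition there is no test, and the intervals below cover counting error only.

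In the -4OHT library the endoderm-like and epiblast-like cells differed in many of the same receptors. Of 12 members at 10 CPM or more in either class, 8 were at least 2-fold higher in endoderm-like cells (20.1% of all genes at that level) and 2 at least 2-fold lower (10.9%). Gpc6 was at 29.9 against 2.03 CPM, a ratio of 14.7 (12.3 to 17.8), Gpc3 at 87.4 against 11.99 CPM (7.29, 6.72 to 7.91) and Gpc4 at 43.6 against 8.89 CPM (4.91, 4.43 to 5.44). Sdc4 (3.61), Itgb1 (2.69), Itga3 (2.68), Itga5 (2.46) and Itgav (2.39) were the other 5 that were higher. The 2 that were lower were Itga6, at 26.9 against 75.3 CPM, and Sdc2, at 3.07 against 11.95 CPM. Itga6 varied among endoderm-like clusters of this library and was lowest in the cluster led by Amn. It was at 43.0, 42.6 and 86.8 CPM in those led by Cited1, Car4 and Clu, none of them 2-fold below the epiblast-like level. Dag1, at 59.8 against 75.3 CPM, differed less than 2-fold.

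Members under 10 CPM in both classes differed as well. Itgb6 was counted 150 times in 1311 endoderm-like cells and 2 times in 3662 epiblast-like cells, a ratio of 267 (72.6 to 2223). Itgb7 was at 0.439 CPM in endoderm-like and 7.25 CPM in epiblast-like cells, and Itgae at 1.41 and 8.61 CPM. Itga9 was at 1.07 and 8.51 CPM, a ratio in favour of epiblast-like cells of 7.94 (5.19 to 12.8).

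The endoderm-like class was made of 5 clusters that the libraries shared unevenly. The cluster led by Amn and Cubn, receptor genes of the visceral endoderm, held 677 of the 1311 cells of -4OHT and 2 cells of +4OHT. The cluster led by Gkn2 and Gkn1 held 1428 cells of +4OHT and 29 of -4OHT. Clusters led by Cited1 (114 and 1279 cells in -4OHT and +4OHT), Car4 (431 and 2004) and Clu (60 and 1222) had cells of both, and the median depth of the 5 clusters ran from 9386 UMIs (Gkn2) to 17783 UMIs (Amn). The Amn cluster was named from 4 endoderm markers and the others from 8. Its endoderm markers summed to 11515 CPM (17405 to 26432 CPM in the others) and its Epi markers to 3402 CPM (591 to 797 CPM in the others). The genes of a cluster were also used to form it, apart from the members, so that these values describe the cells.

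Receptor levels differed among these clusters. The Amn cluster had the least Itga6 (11.0 CPM, 9.26 to 13.02), Itgb5 (8.06), Itgb4 (3.83), Itgb6 (2.87) and Itgb1 (122), and it had 389 CPM of Sdc4 and 79.7 CPM of Gpc3. The Gkn2 cluster had 179 CPM of Itga6, 159 CPM of Gpc6 and 91.6 CPM of Itgb5, with 11.999 CPM of Gpc3. The Clu cluster, whose other leading genes Acta2 and Tagln belong to contractile cells, had in +4OHT 349 CPM of Itgb1, 65.7 CPM of Itgb4, 35.6 CPM of Itgb6, 208 CPM of Gpc4 and 567 CPM of Sdc4. Itga6 therefore ranged from 11.0 to 179 CPM within the class, while Itga5 lay between 30.9 and 56.7 CPM and Dag1 between 45.8 and 75.5 CPM.

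**Figure D4:**
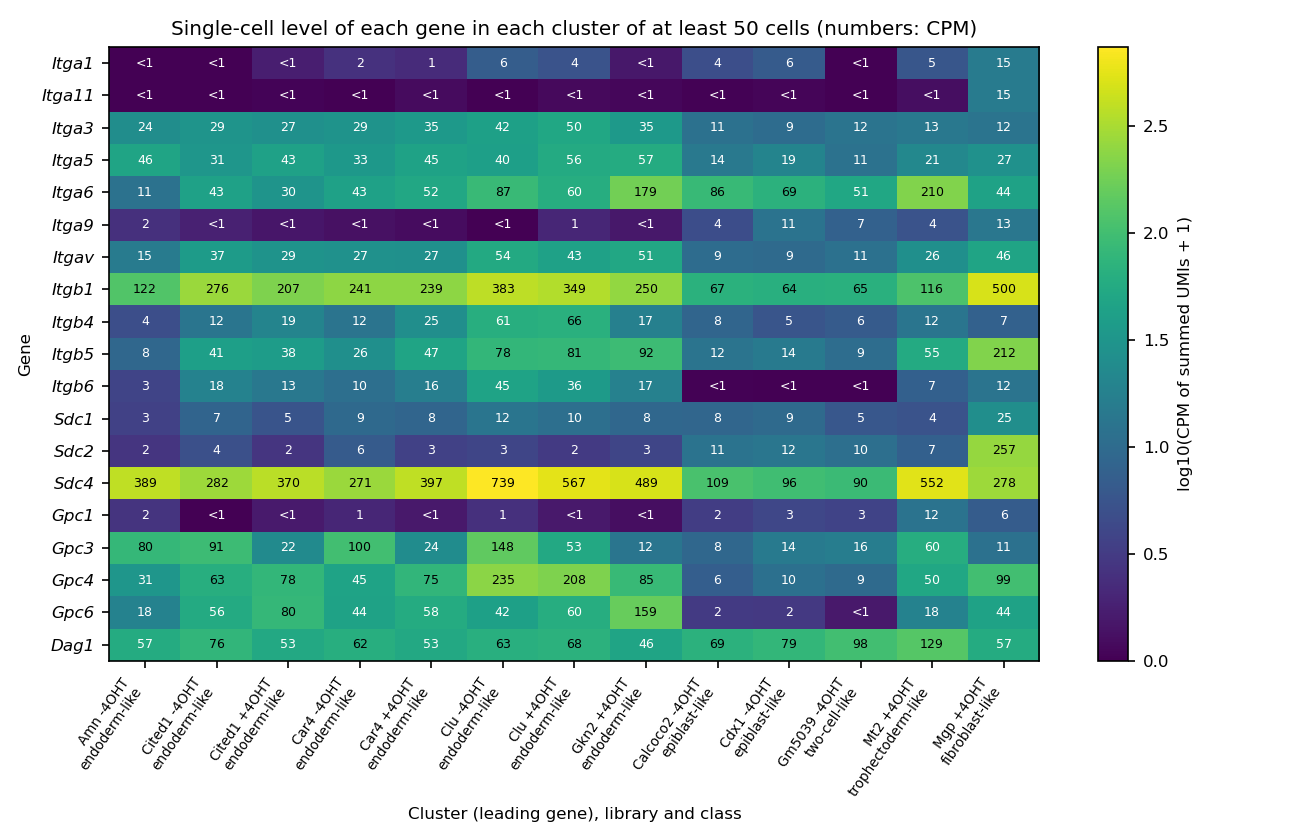
Colour shows log10(CPM of summed UMIs + 1) and the number gives the CPM of each member with at least 10 CPM in a class, by cluster and library (columns, clusters of at least 50 cells in that library, named by the leading gene). Itgb6 is under 1 CPM in epiblast-like and two-cell-like columns, Itga6 is lowest in the Amn column among endoderm-like cells, and Sdc2 and Itga11 are highest in the fibroblast-like column.

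Outside endoderm and Epi, the trophectoderm-like cells of +4OHT (196 cells) had the highest Itga6 of any class (209.9 CPM) and the highest Dag1 (128.5 CPM) and Gpc1 (11.5 CPM). Their cluster, over both libraries, had 4348 CPM of summed endoderm markers and 830 CPM of Epi markers beside 208 CPM of trophectoderm markers. What part endoderm and Epi RNA had in these levels was not tested. The fibroblast-like cells of +4OHT (55 cells) had 500.1 CPM of Itgb1, 257 CPM of Sdc2, 212 CPM of Itgb5, 14.5 CPM of Itga11 and 12.6 CPM of Itga9. Gata6 was at 160 CPM in the same cells. Over both libraries, the fibroblast-like cluster had 9045 CPM of summed endoderm markers beside 7557 CPM of fibroblast markers. The part of endoderm RNA in its receptor levels was not tested, nor was whether these cells came from the fibroblasts that coat the plates in nEnd culture. Two-cell-like cells of -4OHT (107 cells) resembled epiblast-like cells in Sdc4 (89.9 against 100.4 CPM) and Itgb1 (64.8 against 65.1 CPM). They had less Itga6 (50.8 CPM, 40.9 to 62.4, against 75.3 CPM) and more Dag1 (98.3 CPM, 84.3 to 114, against 75.3 CPM). Their Gpc6 level rested on 1 UMI (0.559 CPM, 0.0141 to 3.11), an interval that spans the 2.03 CPM of epiblast-like cells.

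Across the whole endoderm-like class, 7 of 13 members at 10 CPM or more differed at least 2-fold between the libraries. In +4OHT, 6 were higher (8.74% of all genes at that level were): Itgb4 (31.1 against 8.48 CPM, 3.66-fold, 3.14 to 4.29), Itgb5 (60.5 against 17.99 CPM, 3.36-fold), Itgb6 (19.9 against 7.31 CPM, 2.72-fold), Itga6 (72.4 against 26.9 CPM, 2.69-fold), Gpc6 (80.1 against 29.9 CPM, 2.68-fold) and Gpc4 (106 against 43.6 CPM, 2.42-fold). The 1 that was lower (3.89% of all genes) was Gpc3, at 27.7 CPM in +4OHT and 87.4 CPM in -4OHT, a ratio of 0.317 (0.298 to 0.337). Itgb1 (1.47), Itgav (1.63), Itga3 (1.38), Sdc4 (1.22), Itga5 (1.19) and Dag1 (0.922) differed less than 2-fold.

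Within clusters most of these differences were smaller. Without the Amn cluster, Gpc3 was the 1 of the 7 still past 2-fold. Itga6 had a ratio of 1.22 (1.07 to 1.40) within the Car4 cluster, 0.695 (0.522 to 0.943) within the Cited1 cluster and 0.695 (0.533 to 0.921) within the Clu cluster, where it had been 2.69 over the class. Itgb4 was past 2-fold within the Car4 cluster (2.12, 1.65 to 2.74) and not within the Cited1 (1.53, 0.914 to 2.78) or Clu cluster (1.07, 0.784 to 1.499). These comparisons within clusters were added after the data were seen.

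Gpc3 was lower in +4OHT in each cluster that both libraries shared. It was at 22.4 against 90.9 CPM in the Cited1 cluster (0.246, 0.198 to 0.308), 23.8 against 100.2 CPM in the Car4 cluster (0.238, 0.214 to 0.265) and 53.1 against 148 CPM in the Clu cluster (0.359, 0.291 to 0.446). The Gkn2 cluster of +4OHT, at 11.999 CPM, and the Amn cluster of -4OHT, at 79.7 CPM, showed the same order. In the same clusters Pou5f1 was low in both libraries, at 0 UMIs in -4OHT (exact Poisson upper limit 2.995 CPM) and 1.36 CPM in +4OHT (Cited1), 3.44 and 0.866 CPM (Car4) and 4.49 and 1.48 CPM (Clu), and it was at 4.43 CPM in the Gkn2 cluster of +4OHT. The neighbour of Gpc3, Gpc4, had ratios of 1.25, 1.69 and 0.884 within the 3 shared clusters. Whether this difference belongs to 4OHT or to the single library of each condition cannot be told apart.

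**Figure D5:**
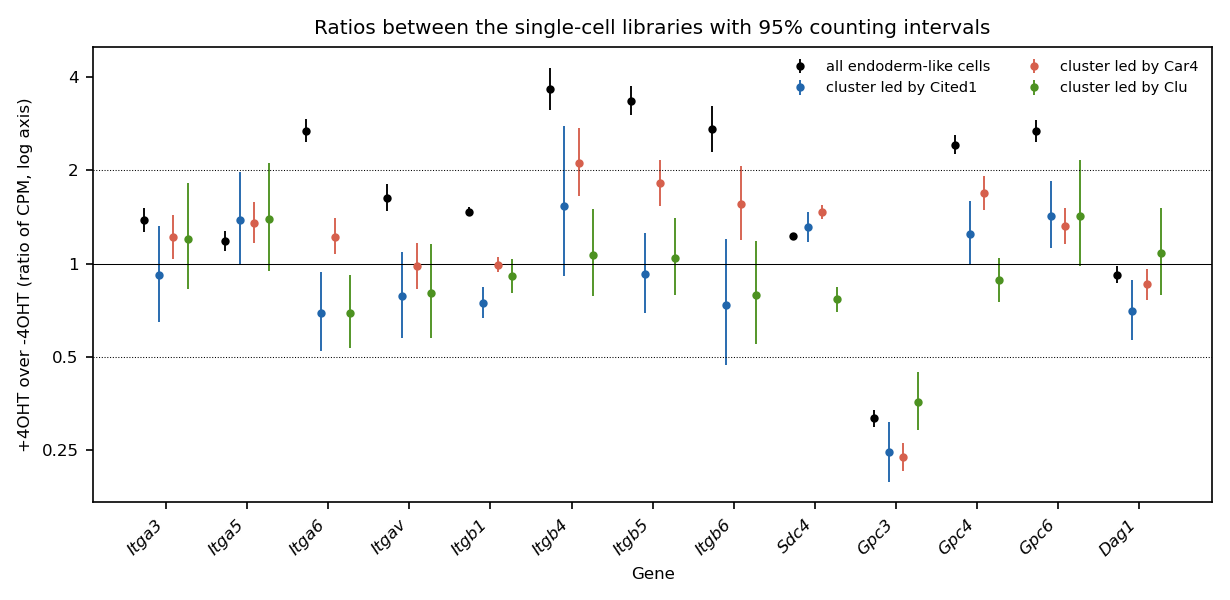
Points are the ratio of CPM, +4OHT over -4OHT, on a log axis with 95% counting intervals (bars) for the 13 members at 10 CPM or more, over all endoderm-like cells (black) and within the clusters led by Cited1, Car4 and Clu. Black points pass the dotted line at 2 for 6 genes, and most coloured points of those genes lie nearer to 1, whereas all 4 points of Gpc3 lie below 0.5.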

How the data were processed

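Bulk libraries were sequenced with a directional kit, and the table the authors deposited holds unnormalised read counts by gene symbol. The sources used here do not name its aligner, counter, annotation or use of strand. For the single cells the authors deposited raw UMI counts per barcode, made with Cell Ranger 6.1.2 per the file headers, on mm10 per the labels. The 35 blank lines of the bulk table were left out.

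Groups came from the sample labels. For the bulk counts, edgeR 4.0.16 (R 4.3.3) was used: filterByExpr, TMM scaling, and 1 quasi-likelihood model (glmQLFit, glmQLFTest) with the group as its term on all 9 libraries, adjusted by Benjamini-Hochberg over 14185 genes. SE is the log2 fold change over the square root of F. The study used DESeq2, which was run as an alternative (1.42.0). All 9 pairs of replicates differed beyond sampling noise in a chi-square test, so that each was kept. Deviations of same-numbered DP and Pdgfra+ libraries correlated at 0.271, 0.477 and 0.321 over genes, so that their numbers were taken to pair them; this was read from the counts. The edgeR script was tested on simulated data.

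Cells with under 10% mitochondrial UMIs and at least 1000 genes were kept in scanpy 1.11.5. Scrublet marked 201 doublets in -4OHT and 0 in +4OHT; its -4OHT score limit was then used for both (201 and 112 removed), a choice made after seeing this. Leiden clusters (resolution 0.5, 20 principal components) used 2000 variable genes less 9 members. A cluster was named by the class with the most markers at 10 CPM or more and at least 0.5 of the level of the highest cluster, with 3 or more such markers. Summed UMIs gave CPM, with exact conditional binomial or Poisson intervals (95%).

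Members called with 10 CPM or more in a group mean, and Itgb1, Itga5, Itga6, Itgav, Sdc4, Gpc3, Gpc4 and Dag1, are described in full; of each ligand or partner list up to 4 called genes are named. Members and lists were chosen with earlier results of these data known. Positions and exon lengths came from GENCODE vM21 (GRCm38). The list of dystroglycan glycosylation genes is not reported here.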

Additional observations from a re-analysis of the deposited data

How the results depend on the processing

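Of 621 values of the 39 log2 fold changes of members described in full, 591 stayed on their side of the limits, and 23 lost and 7 gained a call. Among the called changes, 0 reversed direction. Direction was not compared for changes that were not called, and Dag1 in Oct4+ against Pdgfra+ ran from -0.10 to 0.35. The narrow calls were Itga5 and Gpc1 in DP against Oct4+ and Itgb1 in Oct4+ against Pdgfra+. For DP against Pdgfra+ the count of 0 became 2 with no minimum fold change and ranged from 0 to 2 when single libraries were left out; the 2 without DP replicate 1 were Itgb6 and Gpc4. With the replicate number as a block, pairing DP with Pdgfra+, it was 1 (Itgb6) on 6 and on 9 libraries, and the cause was not tested; numbers did not pair Oct4+ with the other groups. For DP against Oct4+ the count of 16 ranged from 14 to 16, and for Oct4+ against Pdgfra+ the count of 15 ranged from 15 to 17, with single libraries left out. A stricter filter gave 6 in each, since 16 members were tested. For +4OHT against -4OHT the count of 7 was 1 within the Cited1 cluster, 2 within the Car4 cluster, 1 within the Clu cluster and 1 without the Amn cluster, alternatives chosen after seeing the data. Low counts limit the members under 10 CPM, and 1 library per condition limits the single-cell ratios.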
